A study of Mus musculus with 12 samples.

Results

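The genes of 7 proteins that the liver secretes, or that bind such proteins, were followed in liver RNA: Fgf21, Gdf15, Fst, Inhba, Inhbb, Inhbc and Inhbe. They were the lines of the deposited FPKM table (fragments per kilobase of transcript, scaled to the mapped fragments of the library, a level per length) whose symbol was one of these names. Each had 1 line, so they were 7 of the 23849 symbols of the table. The table held 12 livers of male mice, 8 weeks old and on a C57BL/6J background according to the labels, and fed a high fat diet (HFD) in every group. Whether this was the age at sampling is not settled here. All were first fed HFD without treatment. For the last 2 weeks on HFD they received vehicle (drinking water) or Libramed by oral gavage shortly before lights off. Libramed is the gel-forming fibre product that the study calls Policaptil Gel Retard. Livers were taken at ZT0 (lights on) or ZT12 (lights off), which gave the groups vehicle ZT0, vehicle ZT12, Libramed ZT0 and Libramed ZT12 with 3 mice each. No group without HFD was analysed here, so every comparison is between mice on HFD. The genes were selected on FPKM values of these livers, with earlier results of the same table known, among them that Gdf15 was lower at ZT12. Their values over time are therefore given as a description, and the intervals and calls printed with them are not read as evidence.

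Hepatokines are proteins that the liver releases into the blood and that act on other tissues. FGF21, a fasting and stress hormone, acts on cells that carry an FGF receptor together with the co-receptor beta-Klotho, and GDF15, a stress hormone that lowers food intake, acts in the hindbrain through GFRAL and RET. Activins are dimers of inhibin beta subunits: Inhba and Inhbb encode those of activin A and activin B, Inhbc and Inhbe encode those of activin C and activin E, which are made mainly by hepatocytes, and Fst encodes follistatin, which binds activins and keeps them from their receptors.

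The upstream sequences of the 2 hormone genes are shown because Fgf21 and Gdf15 are textbook targets of stress and nuclear receptor signalling. RefSeq promoters (build GRCm38.p6) were found for 6 of the 7 genes, Gdf15 with 2, and the 250 bases before each start were searched on both strands for 4 motifs: TGATGNAA (the C/EBP-ATF response element bound by ATF4), CACGTG (the E-box bound by clock and ChREBP family factors), TTANGTAA (the D-box bound by NFIL3 and the PAR bZIP factors) and the DR1 element, which is 2 AGGNCA sites with 1 base between them and is bound by PPAR and HNF4 dimers. Capitals mark the matches. The first stretch is chr7:45615491-45615740 and the second chr8:70632457-70632706, both on the minus strand and each ending at the base before the gene's start.
Fgf21 upstream: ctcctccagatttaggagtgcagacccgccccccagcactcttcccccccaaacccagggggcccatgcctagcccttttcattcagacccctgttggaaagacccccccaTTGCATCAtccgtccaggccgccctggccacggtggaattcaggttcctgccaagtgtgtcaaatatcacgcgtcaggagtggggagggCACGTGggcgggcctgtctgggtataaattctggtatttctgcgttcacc
Gdf15 upstream: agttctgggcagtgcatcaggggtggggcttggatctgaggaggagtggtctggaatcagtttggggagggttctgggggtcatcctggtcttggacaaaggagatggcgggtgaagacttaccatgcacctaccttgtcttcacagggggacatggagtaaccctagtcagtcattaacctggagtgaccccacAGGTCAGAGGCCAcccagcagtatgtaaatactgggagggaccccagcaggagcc
Upstream of Fgf21, a C/EBP-ATF match lay 139 to 132 bases before the start on the opposite strand, so it reads TTGCATCA in the line above, and an E-box 50 to 45 bases before it. Upstream of this start of Gdf15, a DR1 match lay 55 to 43 bases before the start; at the second Gdf15 start, inside the gene, an E-box lay 83 to 78 bases before it. The C/EBP-ATF motif occurred in 3.4% of the 32536 promoters of that table, the E-box in 6.04%, the D-box in 2.03% and the DR1 element in 0.341%. Inhbe was the other gene with a C/EBP-ATF match, shown to set it beside that of Fgf21; it lay in chr10:127352011-127352040 on the minus strand, 181 to 174 bases before the RefSeq start and within the longer Inhbe transcript of GENCODE.
Fgf21 motif window: agacccccccaTTGCATCAtccgtccaggc
Inhbe motif window: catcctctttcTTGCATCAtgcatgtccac
Both windows carried the same 8 letters. Inhba had a D-box match 123 to 116 bases before its start, and none of the 4 motifs was found in the windows of Inhbb and Inhbc. A match is a description of letters and does not show that a factor binds there.

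The livers expressed hepatocyte genes throughout. The summed FPKM of 8 detected markers of 10 listed lay between 3.8e+04 and 5.2e+04, although Alb, the albumin gene, was listed at 0 in all 12 livers, which is a failed estimate and not an absence. The files held no counts, and the total depth of the libraries was therefore unknown, but the steps between low values gave a relative depth that ranged 1.77-fold, from 0.712 in Libramed ZT12 mouse 2 to 1.257. Markers of endothelial cells summed to 30.4 to 47.8 FPKM at ZT0 and 15.9 to 27.2 at ZT12, without overlap, and 1 of 7 tested was called lower at ZT12 in vehicle mice and 3 of 7 in Libramed mice. Markers of stellate cells summed to 49.7 to 86.2 FPKM at ZT0 and 44.7 to 65.2 at ZT12 with vehicle, which overlap, and to 74.2 to 91.9 and 35.8 to 61.2 with Libramed. Of 8 tested, 0 were called lower by limma in vehicle mice (3 at an unadjusted p under 0.05) and 6 in Libramed mice. Their part in the differences over time below was not tested. In whole liver, fewer cells of a type and less RNA per cell cannot be told apart.

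The 7 genes covered a wide range of levels. Inhbc had the highest mean over the 12 livers (61.4 ± 13.1 FPKM, SD, n = 12), followed by Inhbe (33.1 ± 7.69), Gdf15 (10 ± 7.43), Fgf21 (7.96 ± 5.15), Inhba (1.69 ± 0.621), Fst (0.899 ± 0.418) and Inhbb (0.204 ± 0.101). Inhbc exceeded Inhbe in 12 of 12 livers, and Inhbe exceeded Gdf15 in 12 of 12. Gdf15 exceeded Fgf21 in 8 of 12 livers, so their order was not fixed, whereas Fgf21 exceeded Inhba in 11, Inhba exceeded Fst in 10 and Fst exceeded Inhbb in 12. The hormone genes spread most: the highest liver exceeded the lowest 14.6-fold for Fgf21 and 14.2-fold for Gdf15, against 1.79-fold for Inhbc and 2.33-fold for Inhbe. Tests ran on the 9806 symbols with a mean of at least 1 FPKM. Fgf21, Gdf15, Inhba, Inhbc and Inhbe were among them, and Fst and Inhbb, under that minimum, are given by their values and by a fit without a minimum.

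**Figure D1:**
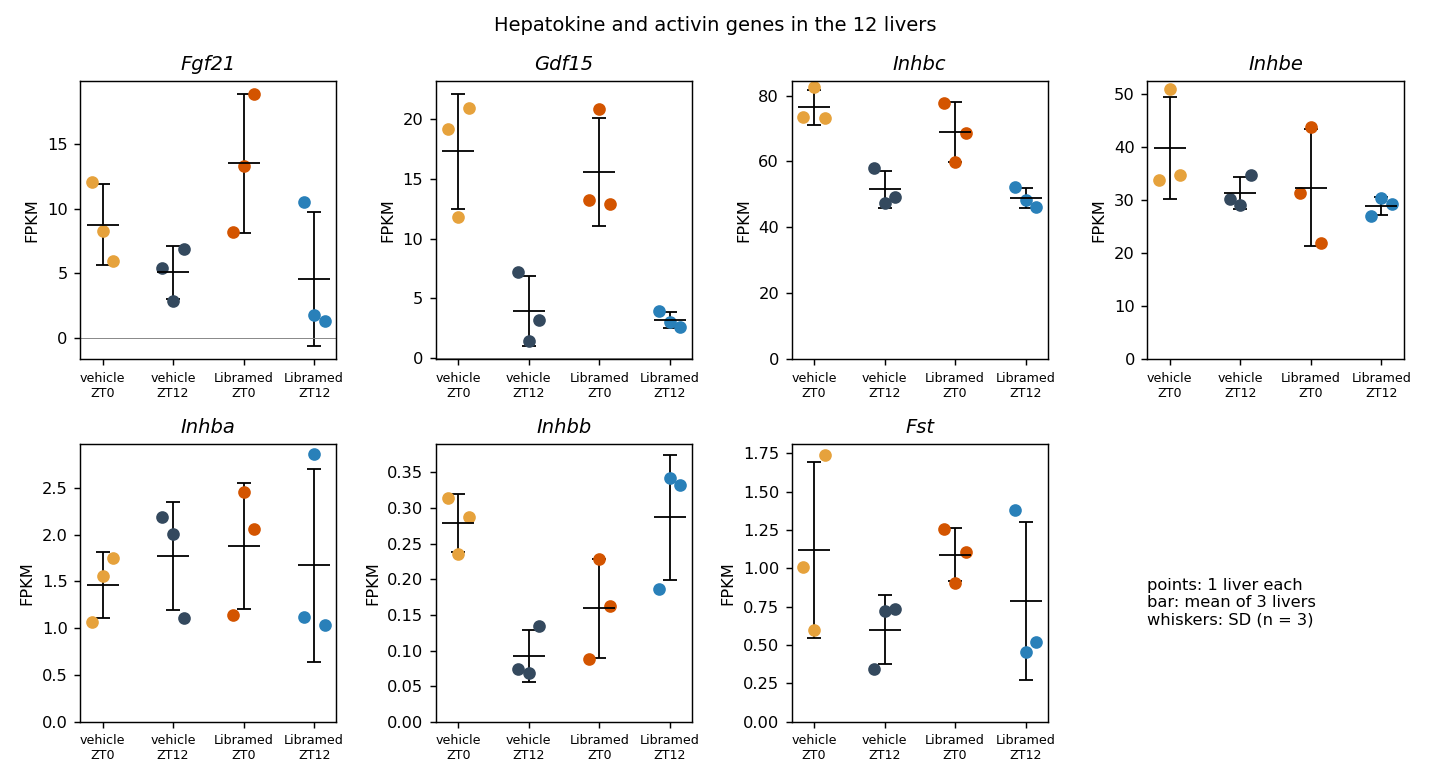
Level of each gene in FPKM (vertical axis, a scale of its own for each gene) in the 4 groups of 3 livers; each point is 1 liver, the bar is the group mean and the whiskers are the SD. The 6 ZT12 livers lie below the 6 ZT0 livers for Gdf15 and Inhbc, whereas 1 Libramed ZT12 liver stands apart from its group for Fgf21.

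Gdf15 was lower at ZT12 in both treatments. Gdf15 (ENSMUSG00000038508.7, chr8:70629393-70632456, minus strand, GENCODE vM21 on mm10) had 19.2, 11.8 and 20.9 FPKM in the vehicle ZT0 livers and 7.23, 1.47 and 3.17 in the vehicle ZT12 livers. In Libramed mice it had 13.2, 20.8 and 12.9 FPKM at ZT0 and 3.98, 3.05 and 2.65 at ZT12. The lowest ZT0 liver thus had 11.8 FPKM and the highest ZT12 liver 7.23, and neither pair of groups overlapped. Mean levels were 17.3 ± 4.82 against 3.95 ± 2.96 FPKM in vehicle mice (SD, n = 3), a 4.37-fold difference, and 15.6 ± 4.52 against 3.22 ± 0.685 in Libramed mice, a 4.84-fold difference. On the log2(FPKM + 1) scale used for all differences, which understates the change of low genes, ZT12 minus ZT0 was -2.02 (95% confidence interval -3.04 to -1.0) with vehicle and -1.95 (-2.43 to -1.48) with Libramed. The spread between ZT12 mice was wider with vehicle, where mouse 1 had 7.23 FPKM, than with Libramed.

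Fgf21 had lower means at ZT12 in both treatments, but its livers overlapped between the times. Fgf21 (ENSMUSG00000030827.5, chr7:45613886-45615490, minus strand, 3 exons) had 12.1, 8.27 and 5.93 FPKM at ZT0 and 5.45, 2.86 and 6.90 at ZT12 in vehicle livers. In Libramed livers it had 8.23, 13.3 and 18.9 FPKM at ZT0 and 10.5, 1.80 and 1.30 at ZT12. The 2 times overlapped in each treatment, by vehicle ZT12 mouse 3 (6.90 against 5.93) and by Libramed ZT12 mouse 1 (10.5 against 8.23). Mean levels were 8.77 ± 3.12 and 5.07 ± 2.04 FPKM with vehicle and 13.5 ± 5.35 and 4.54 ± 5.19 with Libramed (SD, n = 3), where the SD at ZT12 exceeded the mean. ZT12 minus ZT0 was -0.70 (95% confidence interval -1.45 to 0.05) with vehicle and -1.72 (-3.13 to -0.30) with Libramed. Without 1 liver each, the difference with Libramed ranged from -2.44 to -1.28. It was -2.44, and was called, without Libramed ZT12 mouse 1, and it was -1.28 without Libramed ZT12 mouse 3; the other 4 livers left it between -2.01 and -1.42.

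The hepatocyte activin genes moved by less than the hormone genes. Inhbc (ENSMUSG00000025405.9, chr10:127356322-127370431, minus strand) had 73.5, 82.6 and 73.1 FPKM at ZT0 and 58.0, 47.5 and 49.3 at ZT12 with vehicle. With Libramed it had 77.9, 59.8 and 68.8 FPKM at ZT0 and 52.2, 48.4 and 46.2 at ZT12. All 6 ZT12 livers were below all 6 ZT0 livers, although by a narrow margin (58.0 against 59.8). Mean levels were 76.4 ± 5.39 and 51.6 ± 5.62 FPKM with vehicle, a 1.48-fold difference, and 68.9 ± 9.06 and 48.9 ± 3.02 with Libramed, a 1.41-fold difference (SD, n = 3). ZT12 minus ZT0 was -0.56 (95% confidence interval -0.81 to -0.31) and -0.48 on the log2 scale. An antisense gene, Gm47200, shares 268 exon bases with Inhbc, and the sources used here differ on whether the libraries kept strand, so its reads cannot be told apart from those of Inhbc.

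Inhbe (ENSMUSG00000047492.5, chr10:127348857-127354411, minus strand) lies 1910 bases from Inhbc, with no such separation over time. Its vehicle livers had 33.8, 50.9 and 34.6 FPKM at ZT0 and 30.2, 29.0 and 34.6 at ZT12. Its Libramed livers had 31.2, 43.8 and 21.9 FPKM at ZT0 and 27.0, 30.3 and 29.3 at ZT12. The groups overlapped in both treatments, and ZT12 minus ZT0 was -0.32 with vehicle and -0.11 with Libramed. The ZT0 livers spread more (SD 9.64 and 11 FPKM) than the ZT12 livers (2.97 and 1.69).

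Inhba, the activin A subunit, had low levels with no order over time. Inhba (ENSMUSG00000041324.14, chr13:16011851-16031621, plus strand) had 1.07, 1.56 and 1.75 FPKM at vehicle ZT0, 2.19, 2.01 and 1.11 at vehicle ZT12, 1.14, 2.45 and 2.06 at Libramed ZT0 and 1.12, 2.86 and 1.03 at Libramed ZT12. All 4 groups overlapped, and ZT12 minus ZT0 was 0.16 with vehicle and -0.15 with Libramed. Of the summed inhibin beta FPKM of a liver (76.9 to 135), Inhbc made up 56.3% to 74.1%, Inhbe 23.6% to 41.2% and Inhba 0.982% to 3.49%. These shares are of RNA levels per length and depend on the gene models used for the lengths, which the sources used here do not give.

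**Figure D2:**
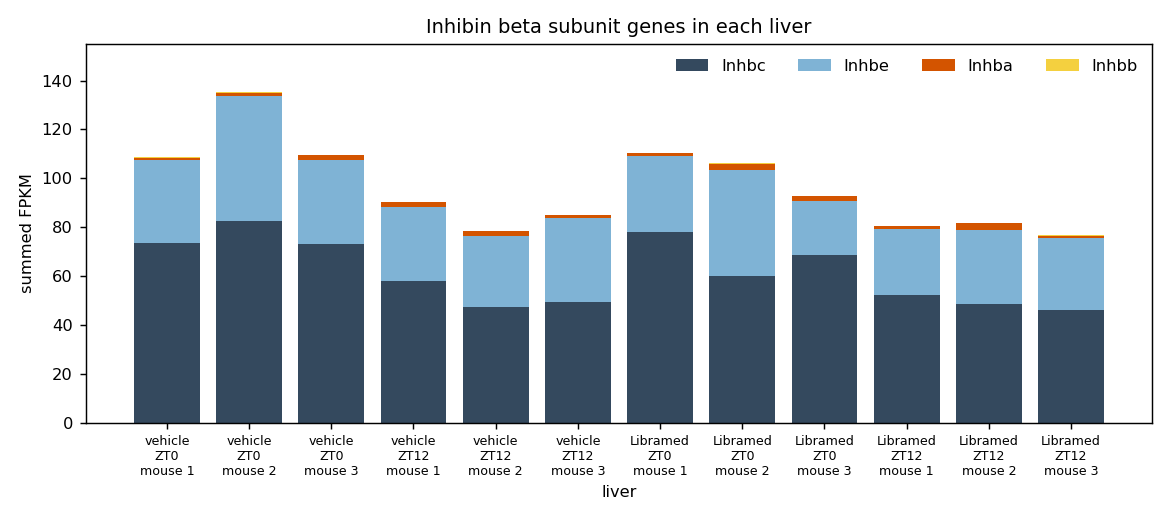
Summed FPKM of the 4 inhibin beta subunit genes (vertical axis) in each of the 12 livers (horizontal axis); each bar is 1 liver and the colours are the genes. Inhbc and Inhbe make up nearly the whole of each bar, which ranges from 76.9 to 135 FPKM, while Inhba is a thin band and Inhbb is at most 0.342 FPKM.

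Inhbb, the activin B subunit, rested on few reads. Inhbb (ENSMUSG00000037035.5, chr1:119415465-119422248, minus strand) had 0.314, 0.235 and 0.288 FPKM at vehicle ZT0 and 0.0737, 0.0678 and 0.134 at vehicle ZT12. It had 0.0877, 0.228 and 0.163 FPKM at Libramed ZT0 and 0.186, 0.342 and 0.332 at Libramed ZT12. From the value of 1 read, estimated from the steps between low values, the lowest of these livers held about 6 reads and the highest about 29. ZT12 minus ZT0 was -0.23 with vehicle, where the ZT0 mean was 3.04-fold that at ZT12, and 0.15 with Libramed. The vehicle groups did not overlap, nor did vehicle and Libramed at either time; Libramed livers were all lower at ZT0 and all higher at ZT12, and 0.533% of the 17066 symbols above 0 in a liver were likewise separated at both times in opposite directions, in either order. In the same fit, without a minimum, Libramed minus vehicle was -0.14 at ZT0 (adjusted p = 0.578, limma) and 0.24 at ZT12 (adjusted p = 0.678). The difference between these effects was 0.38 ± 0.0804 (SE, adjusted p = 0.522), so it did not pass the correction over all symbols.

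Fst, the activin-binding protein follistatin, was low and overlapped between the groups of each of the 4 comparisons. Fst (ENSMUSG00000021765.9, chr13:114452290-114458951, minus strand) had 1.01, 0.598 and 1.74 FPKM at vehicle ZT0, 0.342, 0.725 and 0.735 at vehicle ZT12, 1.26, 0.907 and 1.11 at Libramed ZT0 and 1.38, 0.457 and 0.521 at Libramed ZT12. Without a minimum FPKM, ZT12 minus ZT0 was -0.38 with vehicle and -0.26 with Libramed, and Libramed minus vehicle was 0.01 at ZT0 and 0.13 at ZT12 (adjusted p = 1 and adjusted p = 0.92, limma). An antisense gene, Gm47040, shares 115 exon bases with Fst.

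Counted over the 5 genes tested, 2 (Gdf15 and Inhbc) were called lower at ZT12 in vehicle mice, where 10.4% of all genes tested were called and 4.78% were called lower. The same 2 were called lower in Libramed mice, where the shares were 12.4% and 5.36%. No member was called higher. Over all genes, 15.8% were lower at ZT12 without overlap in each treatment, and 7.89% in both. With both treatments in 1 fit, Fgf21, Gdf15 and Inhbc were called, against 29.7% of all genes, with differences of -1.21 (95% confidence interval -2.06 to -0.35), -1.99 (-2.53 to -1.44) and -0.52 (-0.68 to -0.35). Since the genes were chosen with these contrasts known, nothing is read from the counts. The calls within a treatment were sensitive to single livers: for Gdf15 with vehicle the call was lost without vehicle ZT0 mouse 1 (-1.93) or mouse 3 (-1.87), or vehicle ZT12 mouse 2 (-1.60) or mouse 3 (-1.98). The Inhbc call with vehicle was lost without vehicle ZT0 mouse 3 (-0.59) or vehicle ZT12 mouse 2 (-0.50) or mouse 3 (-0.53), and that with Libramed without any 1 of its 6 livers but Libramed ZT0 mouse 2 (-0.52 to -0.39). The Fgf21 call over both treatments was lost without vehicle ZT0 mouse 1, vehicle ZT12 mouse 2, or mouse 2 or mouse 3 of either Libramed group (-1.16 to -0.96). The direction held in each of these fits.

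**Figure D3:**
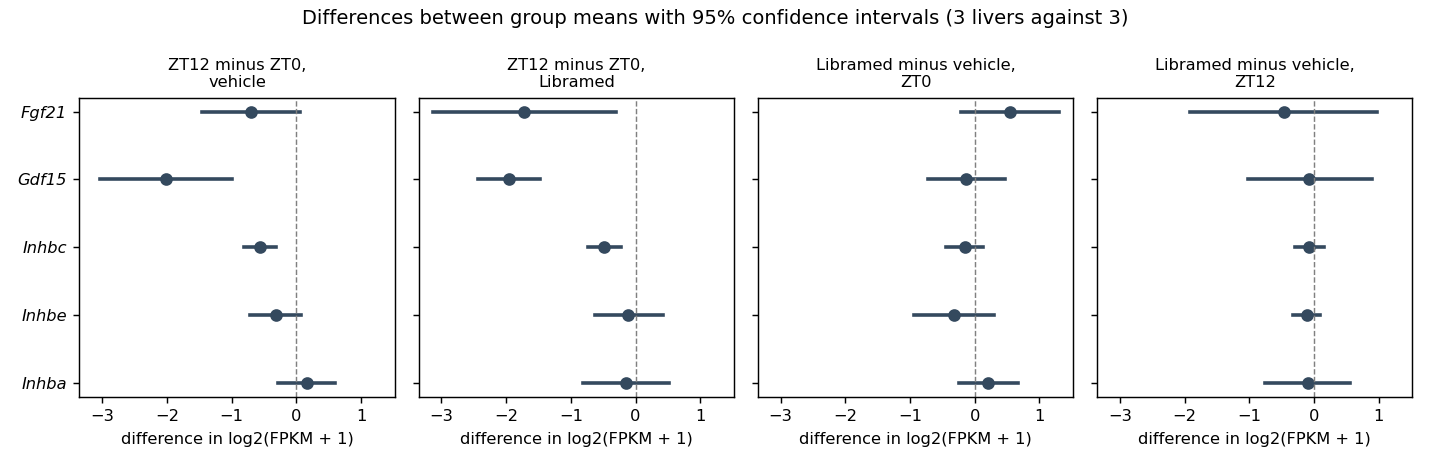
Difference of group means on the log2(FPKM + 1) scale (horizontal axis) with its 95% confidence interval for the 5 genes tested, in the 4 comparisons of 3 livers with 3; points are estimates and lines are intervals. For ZT12 minus ZT0 the intervals of Gdf15 (-3.04 to -1.0 with vehicle) and Inhbc lie below 0 in both treatments and that of Fgf21 with Libramed (-3.13 to -0.30), and for Libramed minus vehicle every interval includes 0.

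Libramed was then compared with vehicle at each time, which asks whether the product changed these genes in mice on HFD. None of the 5 genes tested was called at ZT0 or at ZT12 by limma, and none had an unadjusted p under 0.05 or was called by a version of the Cyber-T procedure, which borrows variance from genes of like level. Of all 9806 genes, 0 were called at either time (0%), while 905 at ZT0 (9.23%) and 661 at ZT12 (6.74%) had an unadjusted p under 0.05. For Fgf21, Libramed minus vehicle was 0.55 at ZT0 (95% confidence interval -0.21 to 1.30, adjusted p = 0.651) and -0.47 at ZT12 (-1.91 to 0.97, adjusted p = 0.878). The interval at ZT12 reaches to -1.91, so that similar levels are not shown. For Gdf15 the differences were -0.13 (-0.73 to 0.46, adjusted p = 0.901) and -0.07 (-1.02 to 0.89, adjusted p = 0.977). For Inhbc the differences were -0.15 (-0.44 to 0.13, adjusted p = 0.738) and -0.07 (-0.30 to 0.15, adjusted p = 0.881). Inhbe differed by -0.32 (-0.94 to 0.30) and -0.11 (-0.32 to 0.10), and Inhba by 0.21 (-0.25 to 0.67) and -0.10 (-0.75 to 0.56).

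Over both times, with treatment permuted within each time (400 arrangements), the two-sided exact permutation p for Libramed minus vehicle was 0.92 for Fgf21, 0.775 for Gdf15, 0.67 for Fst, 0.785 for Inhba, 0.575 for Inhbb, 0.175 for Inhbc and 0.255 for Inhbe. The difference between the treatments in the change over time was tested with all 12 livers. It was -1.02 for Fgf21 (95% confidence interval -2.69 to 0.65, adjusted p = 0.859), and 0.07 for Gdf15 (-1.08 to 1.21, adjusted p = 0.987). For Inhbc it was 0.08 (-0.26 to 0.42, adjusted p = 0.956), and Inhba and Inhbe had -0.31 and 0.21. The larger fall of the Fgf21 means with Libramed thus did not pass the test. Of all genes, 0 were called for this interaction and 650 (6.63%) had an unadjusted p under 0.05. The neutrophil markers, mainly Lcn2, summed to 144 to 311 FPKM at vehicle ZT0 and 15.3 to 69.8 at Libramed ZT0. The single markers did not share this direction: of 3 tested at ZT0, 2 had higher means with Libramed and 1 a lower mean (median 0.64). The macrophage markers summed to 28.8 to 35.9 FPKM at vehicle ZT0 and 16 to 28.5 at Libramed ZT0, and 3 of 5 tested had an unadjusted p under 0.05, none of them called by limma. Fat markers summed to 1.53e+03 to 2.63e+03 FPKM at vehicle ZT0 and 2.65e+03 to 3.21e+03 at Libramed ZT0. The 2 fat markers tested had an unadjusted p under 0.05 by limma, 1 higher and 1 lower with Libramed. Of 8 hepatocyte markers tested at ZT0, 3 had an unadjusted p under 0.05, and 4 had higher and 4 lower means with Libramed. The part of any of these cell types in the comparisons at ZT0 was not tested.

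The receptors of these hormones were looked up next. This list and those below were written by hand with earlier results of these data known. Gfral and Ret, the receptor genes of GDF15, were listed at 0 in every liver. Of 6 tested FGF receptor genes, 2 rose and 2 fell at ZT12 in vehicle mice: Fgfrl1, a receptor without a kinase domain, by 0.84 (adjusted p = 0.0322) and Fgfr3 by 0.67 (adjusted p = 0.0294), against Fgfr2 (-0.66, adjusted p = 0.0143) and Fgfr4 (-0.40, adjusted p = 0.0485). In Libramed mice Fgfr2 fell again (-1.03, adjusted p = 0.00735), and Fgfr1 (0.56, adjusted p = 0.0498) and Fgfrl1 (0.51, adjusted p = 0.0209) rose. Klb, the beta-Klotho gene, named for its role after its values were seen, had 5.65 ± 1.71 FPKM at vehicle ZT0 and 4.93 ± 1.96 at vehicle ZT12 (SD, n = 3). It had 7.13 ± 2.06 at Libramed ZT0 and 4.78 ± 1.06 at Libramed ZT12. Klb was called in neither treatment (-0.20, adjusted p = 0.717, and -0.47, adjusted p = 0.203, limma).

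The list of activin, inhibin and GDF15 receptors also held TGF-beta and BMP receptors, and neither GDF15 receptor gene was tested. Of its 7 tested genes, Tgfbr2, the type II TGF-beta receptor, rose at ZT12 with vehicle (0.73, adjusted p = 0.0108) and with Libramed (0.60, adjusted p = 0.0112). Acvr2b, a type II activin receptor, rose with Libramed (0.80, adjusted p = 0.0044). None of 4 tested inhibitors of activin signalling was called in either treatment by limma, with 3 and 2 at an unadjusted p under 0.05. Smad6, an inhibitory SMAD, had -0.32 (adjusted p = 0.105) with vehicle and -0.46 (adjusted p = 0.078) with Libramed. Of 11 SMAD transducers and co-repressors, 0 were called by limma with vehicle (3 at an unadjusted p under 0.05), where Zfyve9, the SMAD anchor, had 0.62 (adjusted p = 0.054). With Libramed, Zfyve9 rose (0.55, adjusted p = 0.0155), and Smad3 (-0.45, adjusted p = 0.0222) and the co-repressor Tgif1 (-0.76, adjusted p = 0.0495) fell. Among 6 tested ligands of the same superfamily, Gdf10, a BMP3-like ligand, fell with vehicle (-0.64, adjusted p = 0.0314) and with Libramed (-0.78, adjusted p = 0.00991), where Gdf2, the BMP9 gene (-0.71, adjusted p = 0.0176), and Bmp2 (-0.46, adjusted p = 0.0459) also fell. Gdf2 and Bmp2 are made by stellate and endothelial cells of the liver. As given above, the summed endothelial markers were lower at ZT12 without overlap, while the stellate sums separated with Libramed and overlapped with vehicle. The part of those cells was not tested.

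The pathways known to act on Fgf21 and Gdf15 were counted in the same way. Of all genes tested, 10.4% were called over time with vehicle (4.78% lower) and 12.4% with Libramed (5.36% lower). The ER unfolded protein response, the chaperones and degradation factors induced by misfolded protein in the secretory pathway, was lower: 15 of 17 tested genes fell with vehicle (median of the 17, -1.12) and 11 of 17 with Libramed (median -0.92), beside a median of 0.01 over all genes. Sdf2l1, an ER chaperone partner, fell by 2.97 (adjusted p = 0.00026) and by 2.37 (adjusted p = 0.00835) in the vehicle and Libramed livers, and Manf, a secreted ER stress protein, fell by 2.13 (adjusted p = 0.00258) and by 1.53 (adjusted p = 0.021). The Libramed count depended on single livers: it was 5 of 17 without Libramed ZT0 mouse 1 or mouse 3, or without Libramed ZT12 mouse 1 or mouse 2, and 4 without a minimum FPKM.

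Targets of the integrated stress response, the ATF4 program to which Fgf21 and Gdf15 both belong, were split. With vehicle 2 of 17 rose and 5 fell (median -0.21), and with Libramed 3 rose and 2 fell (median -0.20). Atf5, a transcription factor of the program, fell in both, by 1.74 (adjusted p = 0.00695) and by 1.98 (adjusted p = 0.00565), and Nupr1, a stress-induced chromatin protein, fell by 1.11 (adjusted p = 0.0355) and by 0.95 (adjusted p = 0.0313). Ddit3, the CHOP gene, fell with vehicle (-1.42, adjusted p = 0.0101). Cebpb, a bZIP factor, rose with Libramed (1.49, adjusted p = 0.00047), as did Gpt2, an alanine aminotransferase (1.07, adjusted p = 0.00203). The count of 5 with vehicle was 2 without vehicle ZT0 mouse 1 or mouse 3 or vehicle ZT12 mouse 2 or mouse 3.

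PPAR-alpha targets, the fat oxidation genes of fasting, included more genes that rose at ZT12 than fell: 9 of 22 rose and 1 fell with vehicle (median 0.62), and 6 rose and 3 fell with Libramed (median 0.18). Acot1, an acyl-CoA thioesterase, rose by 1.35 with vehicle (adjusted p = 0.0484) and Vnn1, a pantetheinase, by 1.33 (adjusted p = 0.0173), while Pdk4, a pyruvate dehydrogenase kinase, fell (-1.0, adjusted p = 0.0472). With Libramed, Angptl4, a lipoprotein lipase inhibitor, rose by 1.53 (adjusted p = 0.0047), against Cyp4a14 (-2.65, adjusted p = 0.0044) and Cyp4a10 (-1.26, adjusted p = 0.011), both fatty acid hydroxylases. Of 13 targets of ChREBP, the carbohydrate-responsive factor, 2 rose in each treatment. Thrsp, a lipogenic regulator, rose by 2.67 (adjusted p = 0.0274) and by 3.90 (adjusted p = 0.000659). Of 11 p53 targets, 1 fell with vehicle and 1 rose and 2 fell with Libramed. Of 22 factors that act on the Fgf21 or Gdf15 gene, 2 rose and 4 fell with vehicle and 4 rose and 3 fell with Libramed. Nr1d1, the repressor REV-ERB alpha, fell in both (-1.97, adjusted p = 0.0271, and -2.73, adjusted p = 0.000819), as did Nfil3, the D-box repressor (-1.18, adjusted p = 0.0325, and -1.09, adjusted p = 0.014).

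Among other secreted hepatokines more genes rose at ZT12 than fell. Of 21 tested, 4 rose with vehicle (median 0.25), and 7 rose and 1 fell with Libramed (median 0.24). Tsku, the secreted protein tsukushi, rose by 2.45 (adjusted p = 0.0259) and by 3.12 (adjusted p = 0.00243), and Serpina6, the corticosteroid-binding globulin, by 1.57 (adjusted p = 0.0271) and by 1.31 (adjusted p = 0.00468). Hamp, the iron hormone hepcidin, rose with Libramed (1.57, adjusted p = 0.00835).

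**Figure D4:**
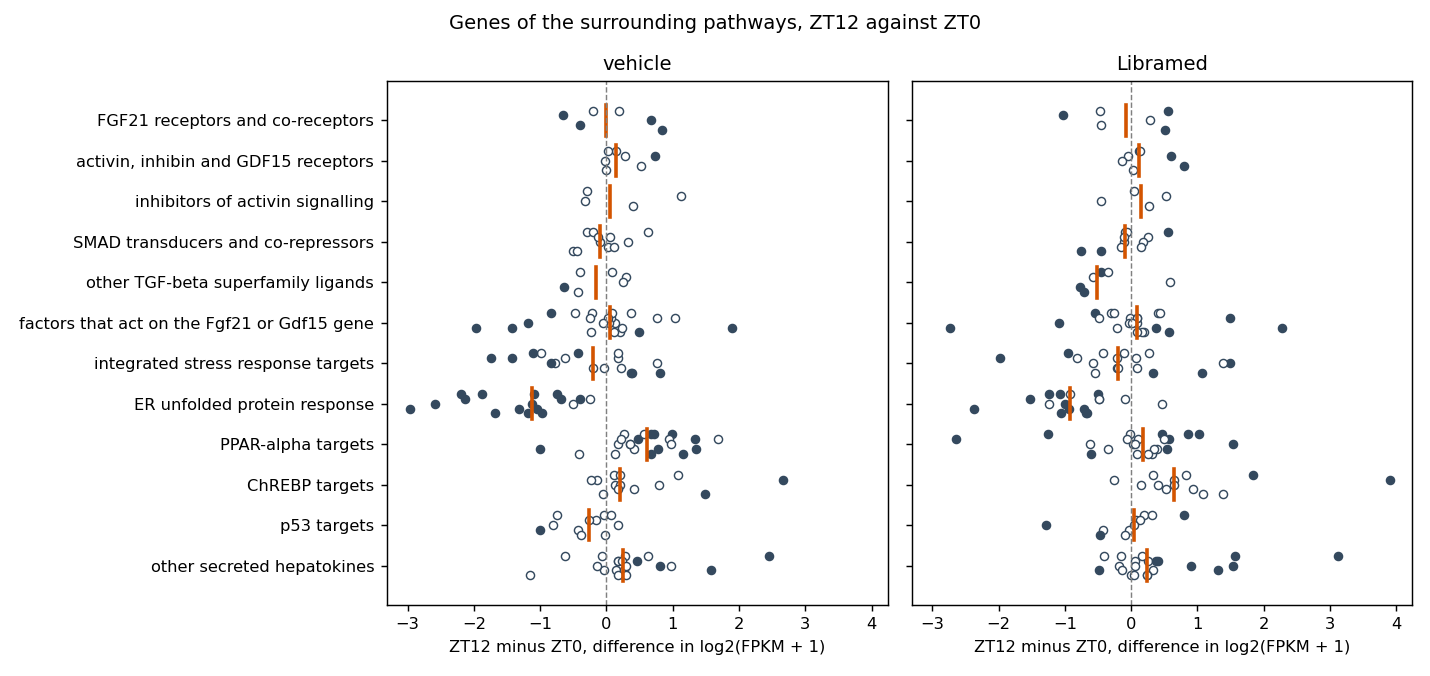
Difference between ZT12 and ZT0 on the log2(FPKM + 1) scale (horizontal axis) for each tested gene of the 12 lists (vertical axis), in vehicle mice (left) and Libramed mice (right); each point is 1 gene, filled where called at an adjusted p under 0.05, and the bar is the median of the list. The unfolded protein response lies furthest to the left, with medians of -1.12 and -0.92, and the bars of most other lists lie near 0.

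Between treatments the 12 lists held no called gene by limma. Of the 152 genes on them that were tested, 0 were called at ZT0, at ZT12 or for the interaction, while 31, 21 and 24 had an unadjusted p under 0.05, and a version of the Cyber-T procedure called 4 at ZT0 and 4 at ZT12. The lists were uneven in this. At ZT0, 17 of the 17 unfolded protein response genes tested had lower means with Libramed (median -0.47, beside -0.02 over all genes), and 13 of them had an unadjusted p under 0.05, beside 9.23% of all genes. Edem1, a lectin of ER-associated degradation, had -0.47 (adjusted p = 0.264, limma) and Syvn1, its ubiquitin ligase, had -1.05 (adjusted p = 0.418). At ZT12, 8 of these 17 genes had lower means (median 0.02) and 0 had an unadjusted p under 0.05 by limma. Of 22 PPAR-alpha targets, 17 had lower means with Libramed at ZT12 (median -0.21, beside -0.01 over all genes), and 8 of the 22 had an unadjusted p under 0.05, beside 6.74% of all genes. Cyp4a14 had -1.99 (adjusted p = 0.729) and Vnn1 had -0.95 (adjusted p = 0.70). The ChREBP targets lay the other way at ZT12: of 13 tested, 10 had higher means with Libramed and 3 lower (median 0.50). Of these 13, 4 had an unadjusted p under 0.05 by limma, and Thrsp had 0.94 (adjusted p = 0.729). The comparisons at ZT0 and ZT12 use the same livers as those over time and are not independent of them. The lists were written with earlier results known, and the genes of a list come from the same 3 livers against 3. Genes of a list are thus not independent of each other. Their counts between treatments are a description and not a test of the list, and were not repeated here without single livers.

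The genes whose levels over the 12 livers were most like each member were listed by Pearson r of log2(FPKM + 1), as a description. For Gdf15 they were Ralb, a small GTPase (r = 0.948), Lgals9, galectin 9 (0.947), and Capn2, a calpain (0.946). For Fgf21 they were Sema4b, a semaphorin (r = 0.936), Mettl14, of RNA methylation (0.895), and Dkc1, the pseudouridine synthase dyskerin (0.889), all with means of at most 3.53 FPKM in any group. For Inhbc they were Stx5a, a Golgi syntaxin (r = 0.963), Ampd2, an AMP deaminase (0.959), and Nars, the asparagine tRNA synthetase (0.958). For Inhbe they were Pxmp4, of the peroxisome membrane (0.921), Tor3a, a torsin (0.906), and Snap29, a SNARE protein (0.906), and for Inhba Phf1 (0.828), Ptcd1 (0.812) and Etaa1os (0.789). Among the members, Gdf15 and Inhbc had r = 0.857, Gdf15 and Fgf21 0.697, Fgf21 and Inhbc 0.623, and Inhbe and Inhbc 0.361. The 12 points are 4 groups of 3 livers and share the difference between ZT0 and ZT12, so that genes that fell over time have a high r.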

How the data were processed

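Liver RNA of 12 mice was measured by RNA-seq. The authors deposited gene-level FPKM values in a single table; per the methods, reads were aligned to mm10 with ELAND, only unique best matches were kept, and the unit is called RPKM, while the submitters' processing notes name TopHat and Cuffnorm. The labels name a TruSeq RNA kit and the methods a stranded protocol. No counts or read totals were used. Samples were grouped by their labels, and replicates are separate mice. Where a symbol recurred, its line of highest mean was used and the other 289 lines were dropped. Values were analysed as log2(FPKM + 1), pseudocount 1, for symbols with a mean of at least 1 FPKM, by two-sided moderated tests of limma 3.58.1 (R 4.3.3) with its mean-variance trend, Benjamini-Hochberg adjusted over all 9806 symbols, called at an adjusted p under 0.05. Pairs of groups were fitted on their 6 livers, and the interaction on 12. Differences are the first group minus the second. Tested on simulated data for the vehicle comparison over time (9806 genes), the fit called 98.5% of 200 genes changed by 2 on the log2 scale. It also called 12 unchanged genes. Smaller changes were not simulated, so this does not show how often differences of the size seen between treatments would be called.

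The members, the lists of pathway genes and the markers were chosen with earlier results of these data known. Beside the 7 members, at most 4 genes of a list and comparison were named: those called with the largest absolute difference or, with none called, those with the smallest p; and the 3 genes most like each member tested. Some genes that this rule names are not reported here. Alternatives were another pseudocount, median-ratio and quantile scaling, no minimum or a minimum of 5 FPKM, limma fitted with a constant prior variance, the replicate block, a fit of all samples, a version of the Cyber-T procedure and leaving out each liver; a fit with no minimum and a pseudocount of 0.1, and list counts without each liver, were added after seeing the data. Sequences and motifs are from RefSeq, gene positions from GENCODE vM21.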

Additional observations from a re-analysis of the deposited data

Results flagged for a closer look

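Inhbb was the 1 gene of the 7 whose treatment effect pointed in opposite directions at the 2 times with no overlap between the groups. The 3 Libramed livers were all lower than the 3 vehicle livers at ZT0 (0.0877 to 0.228 against 0.235 to 0.314 FPKM) and all higher at ZT12 (0.186 to 0.342 against 0.0678 to 0.134 FPKM). The interaction was 0.38 on the log2(FPKM + 1) scale (adjusted p = 0.522, limma over all 17066 symbols above 0), and 1.58 with a pseudocount of 0.1 (adjusted p = 0.595). Of these 17066 symbols, 91 had the same kind of pattern (0.533%). The values rest on about 6 to 29 reads per liver, and the part of counting error in the pattern was not tested.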

How the results depend on the processing

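Of 592 values of single genes under the alternatives, 529 kept their direction and their side of the threshold, 24 lost a call, 3 gained one and 36 changed sign; the cause was not tested. In vehicle mice the 2 genes called over time became 1 with no minimum FPKM (Inhbb) and ranged from 0 to 2 without 1 liver, with 0 without vehicle ZT0 mouse 3, vehicle ZT12 mouse 2 or vehicle ZT12 mouse 3. In Libramed mice the 2 genes became 1 with no minimum and ranged from 1 to 2 without 1 liver, with Gdf15 alone without Libramed ZT0 mouse 1 or mouse 3 or Libramed ZT12 mouse 2 or mouse 3. Replicate numbers were not taken as pairs. For deviations from the group means, 4 of 18 same-numbered pairs had r over 0.1 (-0.279 to 0.341), beside 14 of 36 other pairs (-0.41 to 0.361). With 3 mice a group these values cannot show that no pairing existed. With the replicate block 1 gene (Gdf15) was called in vehicle mice, and the block changed no other count of members called. The 3 genes called over both treatments became 2 with no minimum, and ranged from 2 to 3 without 1 liver. A version of the Cyber-T procedure called Fgf21 over time in both treatments. That procedure called more genes than limma: of the 152 list genes tested, 62 against 50 with vehicle and 73 against 54 with Libramed. Its share over all genes is not given here, and nothing is read from the Fgf21 call. The differences listed next, whose sign changed, lay between -0.15 and 0.21 in the main fit, but some were larger without 1 liver. With a pseudocount of 0.1, Libramed minus vehicle over both times was -0.04 for Fgf21 and ZT12 minus ZT0 over both treatments was -0.01 for Inhba, and the latter was -0.00 with median-ratio scaling. Without 1 liver each, ZT12 minus ZT0 with Libramed ranged from -0.45 to 0.02 for Inhba and from -0.35 to 0.13 for Inhbe, and over both treatments from -0.11 to 0.09 for Inhba. Libramed minus vehicle ranged at ZT0 from -0.37 to 0.02 for Gdf15, and at ZT12 from -0.48 to 0.39 for Gdf15, from -0.39 to 0.07 for Inhba and from -0.13 to 0.01 for Inhbc. Over both times it ranged from -0.23 to 0.29 for Fgf21, from -0.29 to 0.10 for Gdf15 and from -0.06 to 0.15 for Inhba. The interaction ranged from -0.35 to 0.52 for Gdf15, from -0.01 to 0.17 for Inhbc and from -0.03 to 0.45 for Inhbe. With 3 mice a group and no read counts, the differences of Fst and Inhbb remain uncertain. By the estimate from low values, Inhbb had about 6 to 29 reads a liver and Fst about 19 to 105. The part of counting error in their differences was not tested.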
